A study of Mus musculus with 8 samples.

Results

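The genes described here are the chemokines and their receptors, measured by RNA sequencing in mouse skin. Members were the rows whose symbol has the form Ccl, Cxcl, Ccr or Cxcr followed by a number, with Xcl1, Xcr1, Cx3cl1 and Cx3cr1 added, and with 2 or more libraries at a value of 10 or above. Of 50 rows with such symbols 49 passed, 35 ligands and 14 receptors, among 23185 genes tested. Ccl17 was the row that did not pass. The 8 libraries came from skin homogenates of male C57BL/6J mice whose treatment began at 6 weeks of age, labelled as 21 days. In the PBS group (2 libraries) 0.1 mL of phosphate-buffered saline was injected under the skin, and in the bleomycin group (3 libraries) 0.1 units of bleomycin, a DNA-damaging drug that is used to bring about skin fibrosis in mice. In the celastrol group (3 libraries) celastrol, a triterpenoid from a medicinal vine, was given by intraperitoneal injection each day, 1 or 2 mg/kg, over 21 days. The labels give neither the dose of a single celastrol mouse nor whether these mice also had bleomycin. Nothing in the labels says that replicates were separate animals, so p-values measure the spread between these libraries.

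Chemokines are small secreted proteins that steer migrating cells. They bind to glycosaminoglycans on tissue surfaces and act through receptors coupled to inhibitory G proteins on leukocytes. The CC and CXC classes are named for the spacing of their first cysteines. In skin, ligands of Ccr2 draw in monocytes, ligands of Cxcr2 draw in neutrophils, ligands of Cxcr3 draw in activated T cells, and Cxcl12 from fibroblasts and vessels holds cells that carry Cxcr4.

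All values are the deposited normalized values on a linear scale, and differences are on the log2(value + 1) scale, with the standard error (SE) of a limma fit over all genes. This scale understates the change of genes with low values. Depth, estimated from the value of a single read, lay between 14900000 and 37100000 reads per library, and was lowest in Celastrol 2 and Celastrol 3. Celastrol 2 stood apart on the first principal component, and it and Celastrol 3 listed 10 and 9 of the 49 members at 0, against 0 to 6 in the other libraries. All 7 keratinocyte markers were measured, with a summed value between 118843 and 363474. Flg, of the upper epidermis, was higher in both treated groups, and the other 6 did not pass in either comparison with PBS. In each comparison 3 of the 7 had a negative difference. Markers of dendritic cells, mast cells, B cells, adipocytes and blood had 0 past the threshold in either comparison with PBS. The 7 skeletal muscle markers summed to between 75428 and 83758 in PBS, 93012 and 140052 in bleomycin and 172314 and 228259 in celastrol libraries. Of these, 1 rose in bleomycin (Myh1) and 4 were higher in celastrol libraries (Myh4, Myh1, Tnnt3 and Actn3).

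Against PBS, 4 of the 49 members rose with bleomycin and 0 fell. Among them were the monocyte chemoattractants Ccl12 and Ccl2 and the receptor Ccr1. Over all genes tested, 0.453% rose and 0.224% fell. In celastrol libraries 6 members were higher than in PBS, namely those 4 with Ccl7 and Cxcl10, and 1, Cxcl12, was lower, where 0.824% of all genes rose and 0.543% fell. Both comparisons used the same 2 PBS libraries, so their values are set side by side and are not independent. The median log2 difference of the members was 0.44 in bleomycin and 0.14 in celastrol libraries, where the medians of all genes were -0.00 and -0.07.

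The bleomycin libraries lay wholly above the PBS libraries for 20 members and wholly below for 4, and 12% and 11.6% of all genes did so. The celastrol libraries lay wholly above PBS for 14 members and wholly below for 8, against 13.2% and 13.7% of all genes. Of the 49 members, 7 had every PBS value under 10 (Ccl1, Ccl3, Ccl4, Ccl12, Cxcl2, Cxcl3 and Cxcl5), so they entered only through the bleomycin or celastrol libraries. All of these but Ccl3 are among the 20 wholly above PBS in bleomycin, and Ccl12 is among the 14 in celastrol libraries. Cxcl15, wholly below PBS in both, entered only through PBS. The filter favoured these members, so the counts are not a like-for-like comparison with the shares of all genes. The heat map shows where the libraries differ.

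**Figure D1:**
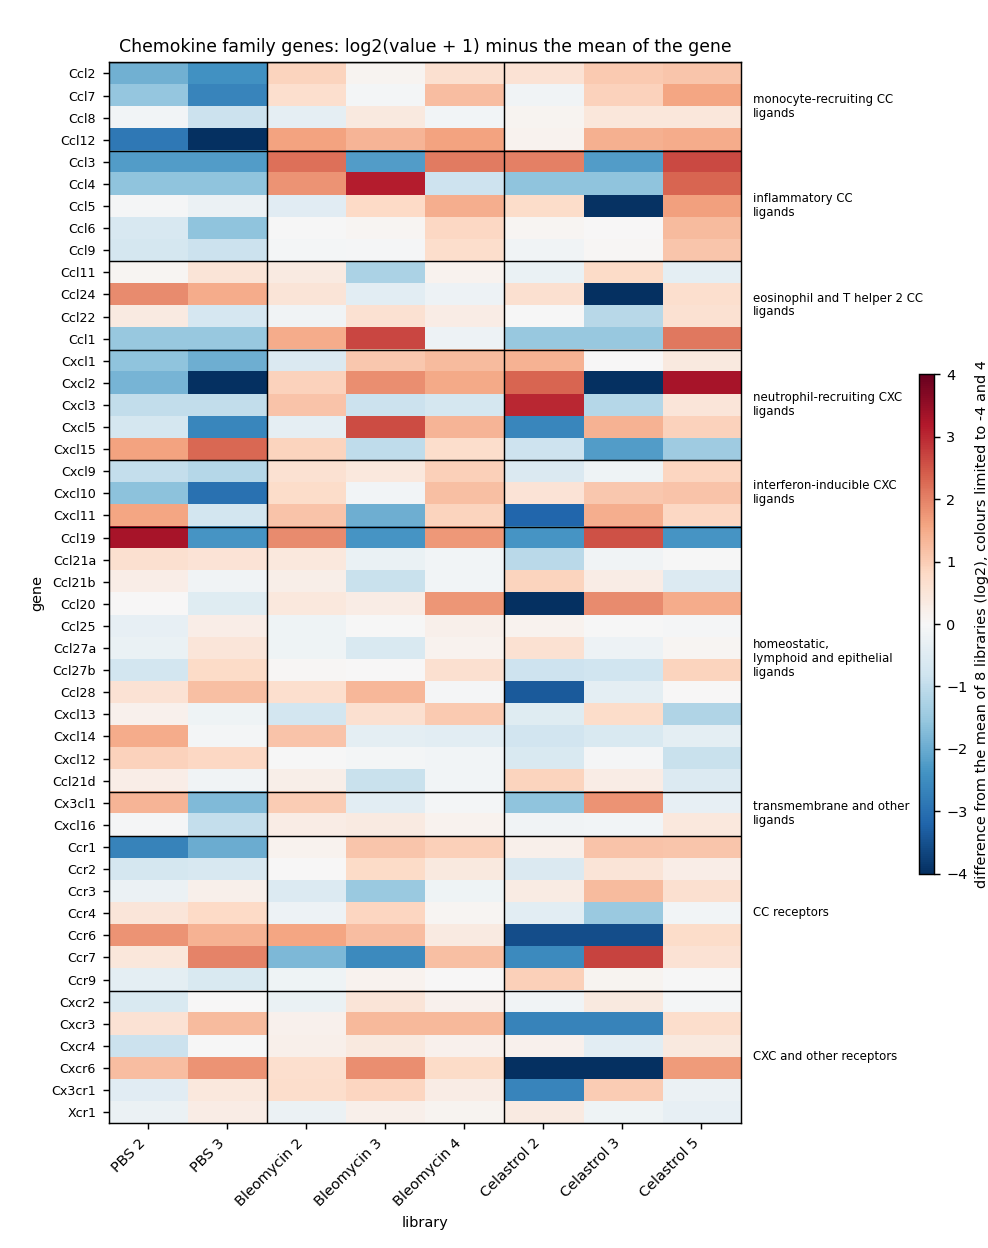
Each row is 1 of 48 of the genes and each column 1 of the 8 libraries; colour is log2(value + 1) minus the gene's mean over the libraries, limited to -4 and 4, and rows are grouped by role. The rows of Ccl2, Ccl7, Ccl12, Cxcl10 and Ccr1 are blue in both PBS libraries and pale to red in the others, and Ccr6, Cxcr3 and Cxcr6 are dark blue in Celastrol 2 and Celastrol 3, where they are listed at 0.

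The ligands of Ccr2 were among the members furthest from PBS. Ccl2, the main monocyte chemoattractant, stood at 25.7 and 17.7 in the PBS libraries. It stood at 185, 108 and 157 in Bleomycin 2, 3 and 4 and at 149, 206 and 217 in Celastrol 2, 3 and 5. No treated library overlapped with PBS. Ccl2 rose by 2.72 ± 0.51 (SE) in bleomycin (adjusted p = 0.0425) and was higher by 3.08 ± 0.51 in celastrol libraries (adjusted p = 0.0185). The group means were 21.7 ± 5.71 (SD, n = 2), 150 ± 38.5 (n = 3) and 191 ± 36.3 (n = 3), which is 6.92 and 8.79 times the PBS mean.

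Ccl12, a mouse monocyte chemoattractant that also signals through Ccr2, was at 2.78 and 0 in PBS. It was at 82.6, 69.3 and 82.3 in bleomycin libraries and at 29.5, 72.5 and 76.1 in celastrol libraries. Its lowest treated value, in Celastrol 2, was still above PBS. It rose by 5.34 ± 0.92 in bleomycin (adjusted p = 0.0317) and was higher by 4.84 ± 0.92 in celastrol libraries (adjusted p = 0.0345). Because PBS was near 0, the size of this difference rests on few reads.

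Ccl7, a ligand of Ccr1, Ccr2 and Ccr3, was at 108 and 50.8 in PBS, at 507, 303 and 752 in bleomycin libraries and at 291, 607 and 946 in celastrol libraries. The groups did not overlap with PBS. Its difference in bleomycin, 2.70 ± 0.55, did not pass (adjusted p = 0.0627), and in celastrol libraries it was higher by 2.87 ± 0.55 (adjusted p = 0.0345). Ccl8 was at 514 and 310 in PBS, 437, 735 and 520 in bleomycin and 596, 766 and 772 in celastrol libraries. It overlapped with PBS in bleomycin libraries, and its differences of 0.46 ± 0.31 and 0.82 ± 0.31 did not pass (adjusted p = 1 and 0.306).

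These 4 genes and the eosinophil chemoattractant gene Ccl11 lie in a run of 81.2 kb on chromosome 11 (mm10, chr11:82035571-82116799), in the order Ccl2, Ccl7, Ccl11, Ccl12, Ccl8. Ccl11, between Ccl7 and Ccl12, was at 628 and 849 in PBS, 761, 247 and 657 in bleomycin and 491, 1009 and 455 in celastrol libraries. Its differences were -0.55 ± 0.49 and -0.26 ± 0.49 (adjusted p = 1 and 0.881). The differences of the neighbours Ccl2 and Ccl7 were close to each other, and those of Ccl11 and Ccl8 were smaller in size. Ccl12 and Ccl2 passed in both comparisons, Ccl7 in that of celastrol with PBS, and Ccl11 and Ccl8 in neither. Per kb of exon, the PBS level of Ccl8 was 806 and that of Ccl11 682, where Ccl7 had 99.4, Ccl2 19.1 and Ccl12 2.59.

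**Figure D2:**
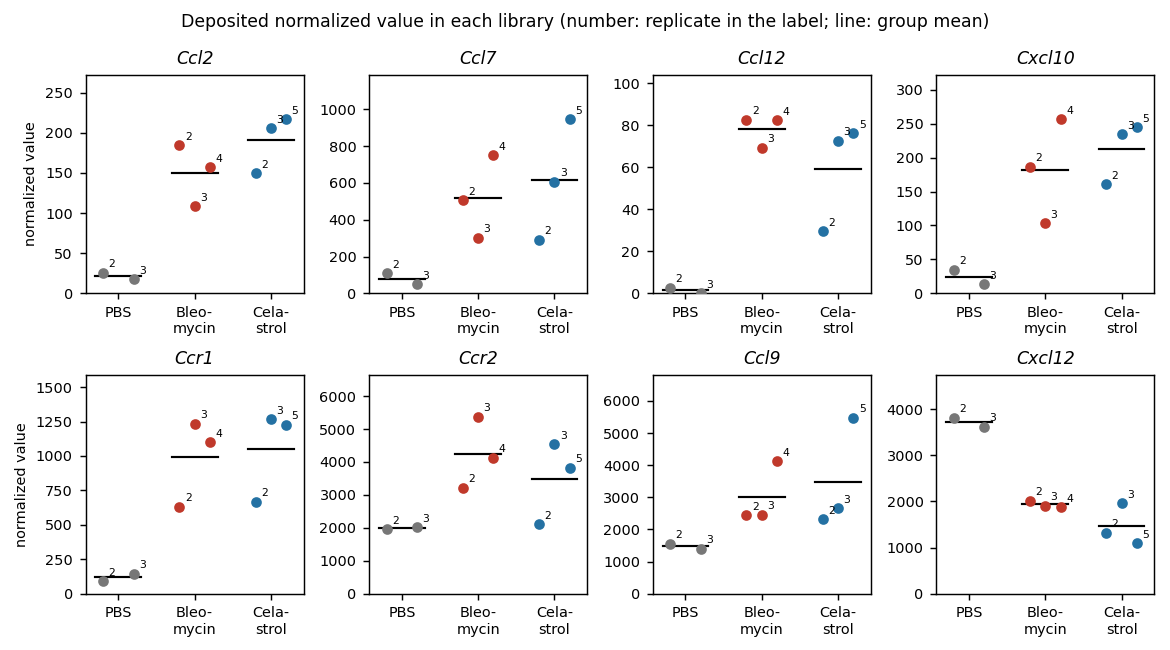
Each panel shows the deposited normalized value of 1 gene in the 8 libraries by group, numbered by replicate, with a line at the group mean. The bleomycin and celastrol points of Ccl2, Ccl7, Ccl12, Cxcl10, Ccr1, Ccr2 and Ccl9 lie above both PBS points, and those of Cxcl12 lie below.

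The upstream sequence of Ccl12 is shown because this gene had the highest log2 difference of the members in both comparisons with PBS. The 250 bases before the start (RefSeq, GRCm38.p6, plus strand, chr11:82101595-82101844) were searched on both strands for 3 motifs: the core of the interferon-stimulated response element (GAAANNGAA), the AP-1 site (TGANTCA) and the NF-kB site. These are found in 7.13%, 6.75% and 7.25% of 32851 windows of the same length before gene starts. The window of Ccl12 held no match, which says only that these letters are not in it.

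Ccl12: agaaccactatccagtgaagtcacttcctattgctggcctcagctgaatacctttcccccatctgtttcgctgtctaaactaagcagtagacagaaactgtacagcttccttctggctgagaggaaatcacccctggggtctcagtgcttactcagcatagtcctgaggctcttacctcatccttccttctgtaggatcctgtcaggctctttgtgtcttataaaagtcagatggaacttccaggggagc

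Among the receptors, Ccr1 differed as well. Ccr1, a receptor of monocytes and neutrophils for Ccl3, Ccl5, Ccl7 and Ccl9, was the member with the smallest p in both comparisons with PBS. It stood at 89.7 and 146 in PBS, at 631, 1235 and 1102 in bleomycin and at 666, 1265 and 1225 in celastrol libraries. Every treated library lay above both PBS libraries. Ccr1 rose by 3.04 ± 0.39 in bleomycin (adjusted p = 0.0101) and was higher by 3.13 ± 0.39 in celastrol libraries (adjusted p = 0.00541).

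Ccr2, the receptor that brings monocytes out of the bone marrow, was at 1965 and 2024 in PBS, 3214, 5368 and 4130 in bleomycin and 2112, 4548 and 3822 in celastrol libraries. All its treated libraries lay above PBS, Celastrol 2 only narrowly, and its differences of 1.06 ± 0.31 and 0.74 ± 0.31 did not pass (adjusted p = 0.247 and 0.37).

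Ccr1, Ccr3 and Ccr2 lie in this order in a run of receptor genes of 435.1 kb on chromosome 9 (chr9:123678439-124113557), after Ccr9, Cxcr6 and Xcr1. Ccr3, the eosinophil receptor of Ccl11 and Ccl24, lies between Ccr1 and Ccr2 and was at 88.3 and 119 in PBS, 71.6, 36.6 and 91.9 in bleomycin and 131, 255 and 163 in celastrol libraries. Bleomycin 2 and 3 were thus below the PBS range, Bleomycin 4 within it and the celastrol libraries above it, but neither difference passed (-0.71 ± 0.56 and 0.77 ± 0.56, adjusted p = 1 and 0.645). Xcr1, a receptor of cross-presenting dendritic cells in the same cluster, lay between 179 and 290 in all 8 libraries, with differences of 0.00 ± 0.37 and -0.06 ± 0.37. Ccr9, a receptor for Ccl25 whose span overlaps 6 other genes, lay between 126 and 147 in PBS. In the treated libraries it lay between 169 and 372 (0.49 ± 0.40 and 0.84 ± 0.40, adjusted p = 1 and 0.445).

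**Figure D3:**
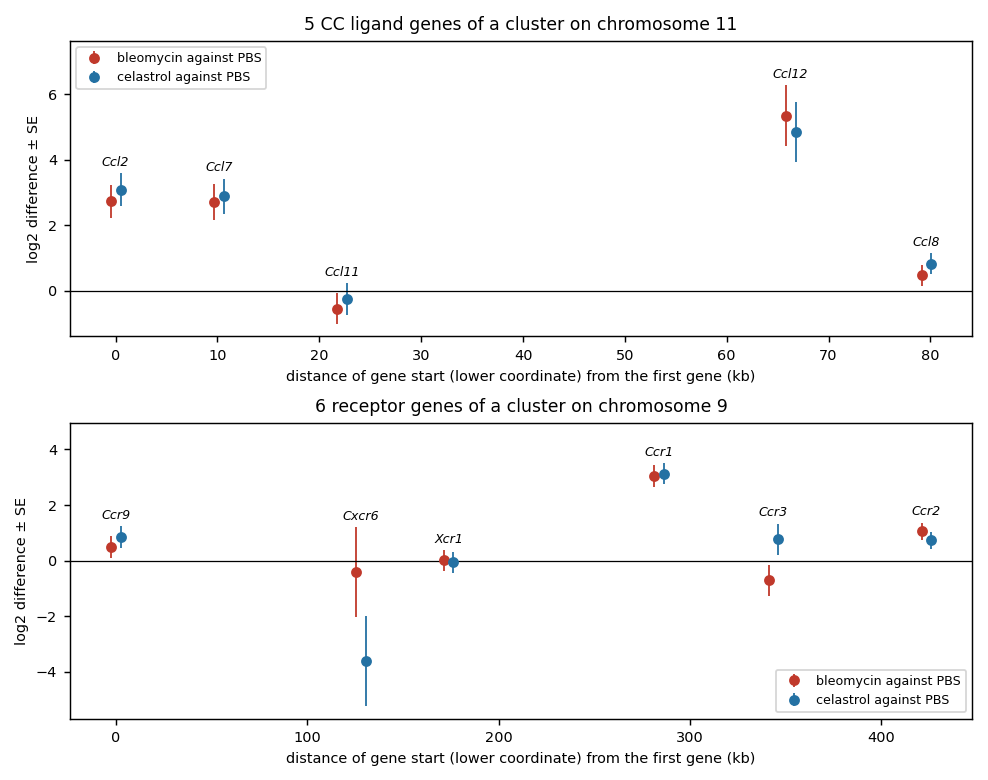
Points are log2 differences from PBS with their SE for bleomycin (red) and celastrol (blue), placed by the distance in kb of each gene from the first gene of its cluster. In the ligand cluster Ccl11 and Ccl8 lie near 0 among Ccl2, Ccl7 and Ccl12, and in the receptor cluster Ccr1 has the highest points.

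The upstream window of Ccr1 (chr9:123968693-123968942, minus strand) is printed as that of the receptor with the smallest p. It held 1 match, an NF-kB site from 74 to 65 bases before the start, in capitals. Ccl2 and Ccl7 had no entry in the table of windows.

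Ccr1: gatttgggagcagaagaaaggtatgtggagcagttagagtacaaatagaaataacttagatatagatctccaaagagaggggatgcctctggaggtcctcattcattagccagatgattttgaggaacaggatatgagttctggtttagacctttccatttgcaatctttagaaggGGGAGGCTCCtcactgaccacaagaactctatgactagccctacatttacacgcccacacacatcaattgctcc

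Of 12 markers of monocytes and macrophages, 2 rose in bleomycin, the Fc receptor gene Fcgr1 and the monocyte marker Ly6c2, and both were higher in celastrol libraries. The other 10 did not pass in either comparison, with a median over the list of 0.70 and 0.82. Of the 12, 11 had a positive difference in bleomycin and 10 in celastrol libraries. The bleomycin libraries lay wholly above PBS for 7 of the 12 and the celastrol libraries for 6, against 12% and 13.2% of all genes. Cd68 was at 1.15 ± 0.31 and 1.39 ± 0.31 (adjusted p = 0.182 and 0.0625). Csf1r, the receptor of the macrophage growth factor, was at -0.42 ± 0.33 and -0.76 ± 0.33, and the mannose receptor Mrc1 at 0.13 ± 0.27 and -0.05 ± 0.27. The summed value of the 12 ran from 17160 to 21207 in PBS, from 24271 to 30274 in bleomycin and from 18263 to 30012 in celastrol libraries. None of the 12 was listed at 0. Ly6c2 was at 133 and 46.0 in PBS and between 464 and 1118 in the treated libraries. In skin homogenate, more cells of a type and more RNA per cell cannot be told apart, and the part of these cells in the results was not tested.

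Each of these calls was lost in at least 1 fit with fewer libraries. Without a mean-variance trend in limma 0 members passed in either comparison with PBS, where 0.0302% and 0.0819% of all genes did. At an unadjusted p under 0.05 there were then 12 members in bleomycin and 16 in celastrol libraries. With 1 library left out at a time, Ccr1 kept its call in 6 of 8 fits in bleomycin, at between 2.70 and 3.39, and lost it without Bleomycin 3 and without Bleomycin 4. Ccl12 was called in 3 (4.38 to 6.30), and not without PBS 3, Bleomycin 2, 3 or 4 or Celastrol 5. Ccl2 was called in 1 (2.46 to 2.98), that without Celastrol 2. In celastrol libraries Ccr1 kept its call in 7 of 8 fits (2.79 to 3.48), all but that without Celastrol 5. Ccl2 kept it in 4 (2.82 to 3.34), not without PBS 2, PBS 3, Bleomycin 4 or Celastrol 5. Ccl7 was called in 3 of 8 (2.33 to 3.41), those without Bleomycin 2, Bleomycin 3 and Celastrol 2. Ccl12 was called in 1 (3.88 to 5.80), that without Celastrol 2. None of these differences changed sign in any of the 20 other settings tried.

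The remaining inflammatory CC ligands had no member past the threshold. Ccl9, a myeloid chemoattractant that acts on Ccr1, was at 1552 and 1398 in PBS, 2437, 2456 and 4120 in bleomycin and 2317, 2655 and 5474 in celastrol libraries. Ccl6, its neighbour on chromosome 11 with a related protein, was at 679 and 344 in PBS, 1043, 1107 and 1855 in bleomycin and 1123, 1073 and 2521 in celastrol libraries. Neither gene overlapped with PBS in any treated library, and both were highest in Bleomycin 4 and Celastrol 5 within their groups. Their differences did not pass: 0.98 ± 0.35 and 1.13 ± 0.35 for Ccl9 (adjusted p = 0.465 and 0.196), and 1.41 ± 0.42 and 1.58 ± 0.42 for Ccl6 (adjusted p = 0.264 and 0.125).

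Ccl3 and Ccl4, the macrophage inflammatory proteins, were listed at 0 in both PBS libraries. Ccl3 was at 20.7, 0 and 19.1 in bleomycin and 18.1, 0 and 28.5 in celastrol libraries, and Ccl4 at 9.64, 26.1 and 0.735 and at 0, 0 and 14.2. Ccl5, which attracts T cells, was at 14.0 and 12.1 in PBS, 10.3, 25.8 and 41.6 in bleomycin and 24.6, near 0 and 47.5 in celastrol libraries. In both treated groups each of these 3 genes had a library at or under its PBS values, except Ccl4 in bleomycin, and none passed (smallest adjusted p = 0.597).

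Cxcl10 led the ligands of Cxcr3, the receptor of activated T cells. It was at 34.8 and 13.2 in PBS, at 187, 103 and 256 in bleomycin and at 161, 234 and 245 in celastrol libraries. No treated library reached down to PBS. The difference in bleomycin was 2.92 ± 0.59 and did not pass (adjusted p = 0.061), and in celastrol libraries Cxcl10 was higher by 3.22 ± 0.59 (adjusted p = 0.0277). That call was lost without PBS 3, Bleomycin 4, Celastrol 3 or Celastrol 5, with the difference between 2.56 and 3.89 over the 8 fits with a library left out. Cxcl10 shares 133 of its 2252 exon bases with Art3 on the other strand, and the use of strand in counting is not given in the sources used here.

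Cxcl9, a ligand induced mainly by interferon gamma, was at 44.2 and 38.1 in PBS, 130, 115 and 169 in bleomycin and 57.6, 76.3 and 155 in celastrol libraries. All treated libraries were above PBS, and the differences of 1.71 ± 0.58 and 1.08 ± 0.58 did not pass (adjusted p = 0.41 and 0.512). Cxcl11, which the table marks as a polymorphic pseudogene, lay between 0 and 25.7 with no order by group. Cxcr3 was low, at 8.35 and 14.3 in PBS, 6.20, 14.4 and 14.7 in bleomycin and 0, 0 and 9.25 in celastrol libraries, with differences of 0.01 ± 1.46 and -2.46 ± 1.46 (adjusted p = 1 and 0.558). Of 10 T and NK cell markers 0 passed in either comparison, and their sum ran from 2076 to 2380 in PBS and from 2008 to 2741 in the treated libraries.

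The upstream windows of Cxcl10 (chr5:92348890-92349139, minus strand) and Cxcl9 (chr5:92328080-92328329, minus strand) are shown because both ligands are known targets of interferon signalling. In Cxcl10 the capitals mark the response element core from 213 to 205 bases before the start, an NF-kB site from 159 to 150, a pair of overlapping NF-kB matches from 104 to 94, and an AP-1 site from 74 to 68. It held at least 1 match to each of the 3 motifs. In Cxcl9 the capitals mark the response element core from 175 to 167 bases before the start.

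Cxcl10: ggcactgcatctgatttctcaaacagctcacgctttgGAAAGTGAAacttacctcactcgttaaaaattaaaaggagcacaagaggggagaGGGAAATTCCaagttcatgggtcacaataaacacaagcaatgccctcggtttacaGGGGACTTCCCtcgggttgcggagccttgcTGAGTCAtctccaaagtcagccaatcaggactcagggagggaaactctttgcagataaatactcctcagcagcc
Cxcl9: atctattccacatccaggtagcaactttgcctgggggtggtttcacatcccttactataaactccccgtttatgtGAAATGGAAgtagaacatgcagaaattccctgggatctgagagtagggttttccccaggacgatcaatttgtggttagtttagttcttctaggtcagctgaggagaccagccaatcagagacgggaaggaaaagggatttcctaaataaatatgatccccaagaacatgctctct

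Of the 49 members 38 had at least 1 window, 45 windows in all. The response element core was in 7 of these windows, the AP-1 site in 6 and the NF-kB site in 10. Over all 32851 windows the shares were 7.13%, 6.75% and 7.25%. Of the members with a match, only Ccr1 and Cxcl10 passed the threshold in any comparison. Cxcl14 and Ccl19 held the response element core, and Ccr3 and Ccr6 the NF-kB site, without passing.

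The ligands of Cxcr2 were low in PBS and uneven in the treated groups. Cxcl1, a keratinocyte and fibroblast product that attracts neutrophils, was at 20.9 and 16.6 in PBS, 44.1, 141 and 162 in bleomycin and 176, 67.5 and 86.8 in celastrol libraries. All treated libraries were above PBS, and the differences of 2.37 ± 0.74 and 2.38 ± 0.74 did not pass (adjusted p = 0.307 and 0.197). Cxcl2, a macrophage product with the same receptor, was at 3.48 and 0 in PBS, 29.6, 57.5 and 45.6 in bleomycin and 80.4, 0 and 159 in celastrol libraries, so that Celastrol 3 overlapped with PBS. It did not pass (4.37 ± 1.89 and 3.47 ± 1.89, adjusted p = 0.679 and 0.52).

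Cxcl3 was at 2.32 and 2.33 in PBS and above 10 only in Bleomycin 2, at 13.3, and Celastrol 2, at 51.7. Cxcl5 was at 2.78 and 0 in PBS and highest in Bleomycin 3, at 36.6. Cxcl15, a ligand best known from lung, went the other way, at 13.2 and 21.8 in PBS, 7.59, 1.32 and 6.61 in bleomycin and 1.64, 0 and 0.746 in celastrol libraries. It passed the filter only through PBS, and its differences of -1.75 ± 1.40 and -3.43 ± 1.40 did not pass (adjusted p = 1 and 0.354). Cxcr2 itself was at 829 and 1283 in PBS and between 1055 and 1812 in the treated libraries, overlapping in both comparisons (0.44 ± 0.29 and 0.36 ± 0.29, adjusted p = 1 and 0.68). Of 5 neutrophil markers measured 1 rose in bleomycin and 2 were higher in celastrol libraries, with a summed value of 41.1 to 104 in PBS, 367 to 4272 in bleomycin and 890 to 1444 in celastrol libraries. S100a8, S100a9 and Retnlg were listed at 0 in PBS 3, where Cxcr2 stood at 1283, and the part of neutrophils in these values was not tested.

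The windows of Cxcl1, Cxcl2 and Cxcl3 are set together because these neighbours on chromosome 5 hold the same 11 letters. In each, NF-kB matches on both strands overlap in the capitals, at 71 to 61, 97 to 87 and 73 to 63 bases before the start. The windows are chr5:90890995-90891244, chr5:90903649-90903898 and chr5:90785851-90786100, all on the plus strand.

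Cxcl1: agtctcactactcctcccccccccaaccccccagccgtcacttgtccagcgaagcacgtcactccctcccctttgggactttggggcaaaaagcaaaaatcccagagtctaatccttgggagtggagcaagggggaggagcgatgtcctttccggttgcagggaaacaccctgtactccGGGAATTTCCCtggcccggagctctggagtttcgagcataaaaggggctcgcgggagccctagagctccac
Cxcl2: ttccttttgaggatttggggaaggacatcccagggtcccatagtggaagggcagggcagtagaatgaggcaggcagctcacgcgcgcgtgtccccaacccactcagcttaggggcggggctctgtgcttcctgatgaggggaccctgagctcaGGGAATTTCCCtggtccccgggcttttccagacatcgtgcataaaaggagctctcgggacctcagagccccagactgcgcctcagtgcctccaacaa
Cxcl3: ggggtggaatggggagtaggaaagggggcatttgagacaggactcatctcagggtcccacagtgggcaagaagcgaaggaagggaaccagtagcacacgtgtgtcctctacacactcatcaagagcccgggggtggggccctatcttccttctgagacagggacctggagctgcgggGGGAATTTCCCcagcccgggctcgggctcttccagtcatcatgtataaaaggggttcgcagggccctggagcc

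Cxcl12 was the member that was lower. This ligand of Cxcr4, made by fibroblasts and vessel walls, was at 3814 and 3615 in PBS, at 2018, 1910 and 1872 in bleomycin and at 1320, 1964 and 1092 in celastrol libraries. All 6 treated libraries lay below PBS, and the 3 bleomycin libraries were close together. The difference in bleomycin was -0.94 ± 0.23 and did not pass (adjusted p = 0.131). In celastrol libraries Cxcl12 was lower by 1.39 ± 0.23 on the log2 scale (adjusted p = 0.0196). That call was lost without PBS 2, PBS 3, Celastrol 2 or Celastrol 5, with the difference between -1.63 and -1.21.

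Cxcr4, its receptor on leukocytes, was at 48.7 and 88.3 in PBS, between 101 and 118 in bleomycin and between 67.5 and 117 in celastrol libraries, and did not pass (0.70 ± 0.53 and 0.50 ± 0.53, adjusted p = 1 and 0.777). Of 8 fibroblast markers, 5 fell in bleomycin (Dpt, Lum, Col1a2, Dcn and Prrx1) and 6 were lower in celastrol libraries. Their sum ran from 245865 to 525529 in PBS, from 24135 to 73274 in bleomycin and from 21424 to 59117 in celastrol libraries. Of 6 endothelial markers, 0 passed in bleomycin and 1 was lower in celastrol libraries. The part of these cells in the level of Cxcl12 was not tested.

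Of 11 ligands that organize lymphoid and epithelial traffic, Cxcl12 among them, 0 passed in bleomycin and only Cxcl12 in celastrol libraries. The bleomycin libraries lay wholly below PBS for 2 and the celastrol libraries for 4, against 11.6% and 13.7% of all genes. They lay wholly above PBS for 1 and 0, against 12% and 13.2%. The list's median log2 difference was -0.24 in bleomycin and -0.43 in celastrol libraries. Ccl21a, made by lymphatic endothelium to guide cells that carry Ccr7, was at 436 and 403 in PBS, 370, 228 and 254 in bleomycin and 131, 251 and 275 in celastrol libraries. Every treated library lay below PBS, and the differences of -0.59 ± 0.39 and -1.005 ± 0.393 did not pass (adjusted p = 1 and 0.329). The 4 lymphatic endothelial markers summed to between 1897 and 1943 in PBS and between 1438 and 2885 in the treated libraries, with 0 past the threshold. Ccl19 and Ccr7 were low and uneven, at 0 to 49.4 and 0 to 37.1.

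Cxcl14, an abundant ligand of healthy epidermis, was at 604 and 202 in PBS, 479, 165 and 160 in bleomycin and 126, 140 and 163 in celastrol libraries (-0.58 ± 0.57 and -1.29 ± 0.57, adjusted p = 1 and 0.406). Ccl20, the epithelial ligand of Ccr6, was at 40.3 and 28.7 in PBS, 54.4, 49.7 and 139 in bleomycin and 0, 152 and 114 in celastrol libraries, so Celastrol 2 alone stood below PBS. Ccr6, on Th17 and dermal gamma-delta T cells, was at 39.4 and 29.8 in PBS, 33.3, 26.1 and 14.0 in bleomycin and 0, 0 and 18.3 in celastrol libraries, with differences of -0.55 ± 1.44 and -3.72 ± 1.44 (adjusted p = 1 and 0.323). Ccl25, a ligand of Ccr9, lay between 549 and 821 in all libraries, with differences of 0.04 ± 0.24 and 0.05 ± 0.24.

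The keratinocyte ligand Ccl27a lay between 122 and 284 with overlapping groups, and its copy Ccl27b between 32.0 and 108. Ccl28, an epithelial ligand of Ccr10, was at 41.7 and 66.2 in PBS, 44.7, 71.8 and 27.1 in bleomycin and 1.80, 21.2 and 28.1 in celastrol libraries (-0.24 ± 1.10 and -2.14 ± 1.10, adjusted p = 1 and 0.493). Cxcl13, the B cell attractant, lay between 37.7 and 182 with no order by group. Celastrol libraries were below PBS for Ccl28 and Cxcl14, without passing the test.

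Members of the type 2 and T cell axes did not pass either. Ccl24, an eosinophil attractant, was at 87.6 and 66.2 in PBS, 33.3, 17.0 and 20.0 in bleomycin and 36.8, 0 and 37.4 in celastrol libraries, with every treated library below PBS (-1.72 ± 1.47 and -2.77 ± 1.47, adjusted p = 1 and 0.506). Ccl22, made by dendritic cells and macrophages, lay between 64.1 and 213 and overlapped in all groups. Ccr4, its receptor on skin-homing T cells, was at 472 and 585 in PBS, 294, 609 and 354 in bleomycin and 251, 121 and 313 in celastrol libraries. Celastrol libraries were all below PBS for Ccr4, by -1.31 ± 0.44 (adjusted p = 0.249), and the difference in bleomycin was -0.40 ± 0.44 (adjusted p = 1).

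Ccl1, a ligand of Ccr8, was listed at 0 in PBS and was at 6.89, 17.0 and 1.47 in bleomycin and 0, 0 and 11.4 in celastrol libraries. Cxcr6, a receptor of resident T cells, was at 36.9 and 55.2 in PBS, 24.8, 57.5 and 26.5 in bleomycin and 0, 0 and 51.9 in celastrol libraries. Its ligand Cxcl16, which is made as a membrane protein, was at 660 and 357 in PBS, 835, 886 and 760 in bleomycin and 627, 633 and 927 in celastrol libraries (0.76 ± 0.30 and 0.56 ± 0.30, adjusted p = 0.576 and 0.507). Cx3cl1, the other membrane-bound ligand, lay between 8.83 and 115, and its receptor Cx3cr1 between 10.7 and 147, with overlapping groups. In each of Ccr6, Cxcr3 and Cxcr6 the libraries at 0 were Celastrol 2 and Celastrol 3, which also had the lowest estimated depth, and the part of depth was not tested.

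**Figure D4:**
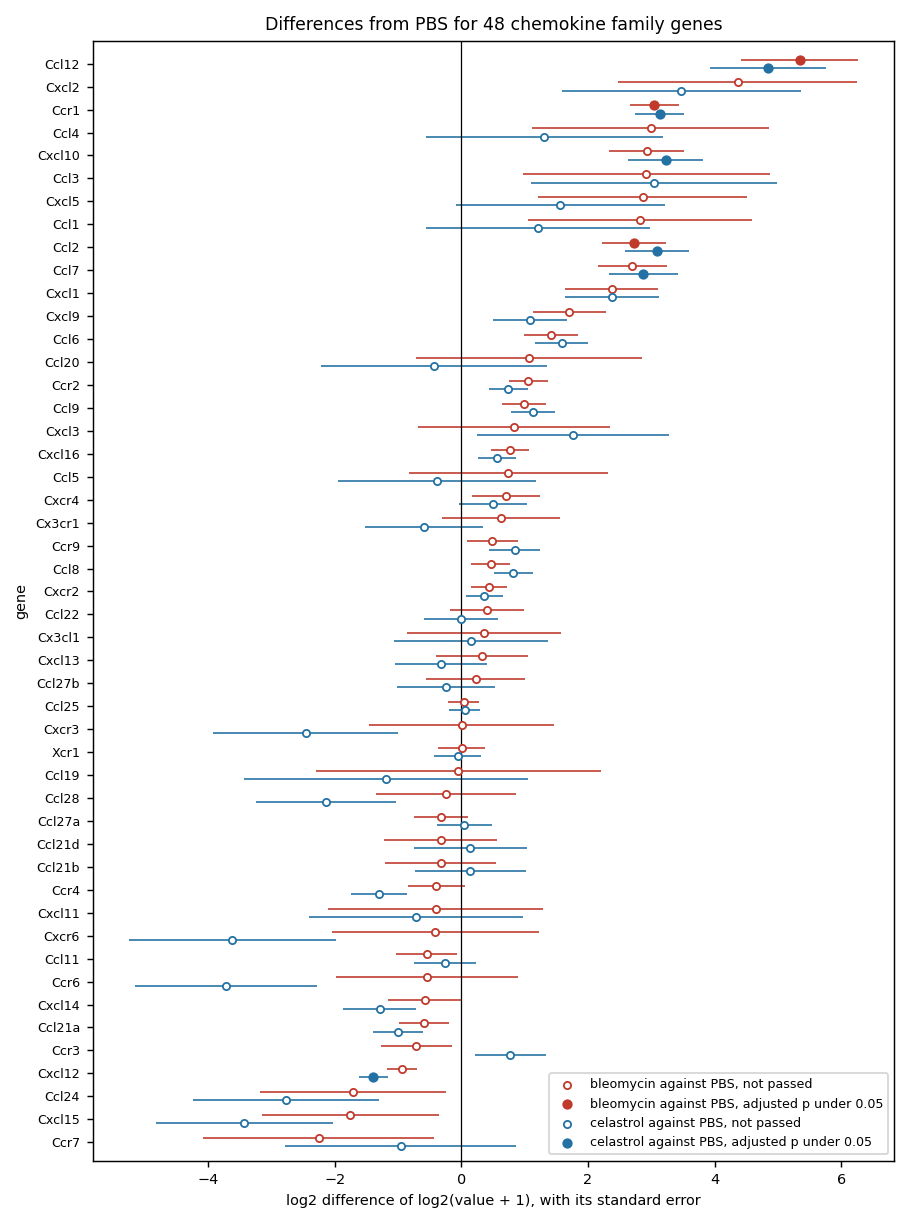
Points are the log2 differences of 48 of the genes from PBS with their SE, for bleomycin (red) and celastrol (blue), in the order of the bleomycin value; filled points have an adjusted p under 0.05. The filled red points are Ccl12, Ccr1 and Ccl2, the filled blue points right of 0 are these with Ccl7 and Cxcl10, and the filled blue point on the left is Cxcl12.

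Between the treated groups, celastrol against bleomycin, no chemokine gene could be called. In limma 0 of the 49 members passed, as did 0% of all genes. At an unadjusted p under 0.05 there were 3 members, against 3.87% of all genes: Ccr3 at 1.48 ± 0.50, Ccr6 at -3.17 ± 1.29 and Ccr4 at -0.91 ± 0.40 (adjusted p = 0.975 for each). Ccr3 was the member whose groups did not overlap, where 4.13% of all genes were wholly higher and 4.59% wholly lower.

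For the genes that differed from PBS the intervals of this difference were wide. The 95% interval of the log2 difference between celastrol and bleomycin was -0.64 to 1.36 for Ccl2, -0.91 to 1.26 for Ccl7, -2.32 to 1.32 for Ccl12 and -0.86 to 1.46 for Cxcl10. It was -0.67 to 0.85 for Ccr1 and -0.91 to 0.01 for Cxcl12. All of these hold 0, and those of Ccl2, Ccl7, Ccl12 and Cxcl10 reach above 1 on the log2 scale, so that neither likeness nor difference of the treated groups was shown. Ccl7, Cxcl10 and Cxcl12 thus passed against PBS in 1 treated group and not in the other, while the difference between these groups did not pass (0.18 ± 0.49, 0.30 ± 0.52 and -0.45 ± 0.21, adjusted p = 0.995, 0.988 and 0.975).

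Other genes of the pathway were taken from 5 lists. Of 5 atypical receptors and scavengers, which take up chemokines without signalling through G proteins, 0 passed in either comparison with PBS. Ackr3, which takes up Cxcl12, was at 308 and 303 in PBS, 175, 99.3 and 155 in bleomycin and 295, 213 and 180 in celastrol libraries (-1.13 ± 0.39 and -0.44 ± 0.39, adjusted p = 0.438 and 0.721). Ackr1, Ackr2, Ackr3 and Ackr4 had bleomycin libraries wholly below PBS, where 11.6% of all genes did. The same 4 had celastrol libraries wholly below PBS, where 13.7% of all genes did.

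Of 20 genes of receptor signalling and desensitization 1 rose in bleomycin and 0 passed in celastrol libraries. Rgs1, which ends the signal of G proteins downstream of chemokine receptors, rose by 2.23 ± 0.40 (adjusted p = 0.0348), from 76.5 and 157 in PBS to 556, 501 and 493, and was at 259, 425 and 225 in celastrol libraries (1.40 ± 0.40, adjusted p = 0.15). Between celastrol and bleomycin libraries the difference of Rgs1 was -0.82 ± 0.35 and did not pass (adjusted p = 0.975). Of 10 genes of processing and presentation and 4 platelet and related ligands, 0 passed in either comparison with PBS.

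Of 21 inducing cytokines and transcription factors 18 were measured, and 3 rose in bleomycin. Among them were Irf7, a factor that amplifies interferon (3.12 ± 0.48, adjusted p = 0.0209), and Stat2, which carries the interferon signal (1.04 ± 0.16, adjusted p = 0.0224). In celastrol libraries 2 of the list were higher, among them Irf7 by 2.87 ± 0.48 (adjusted p = 0.0196), and Stat2 stood at 0.59 ± 0.16 (adjusted p = 0.138). Between celastrol and bleomycin libraries the difference of Stat2 was -0.44 ± 0.15 and did not pass (adjusted p = 0.975). The other 15 and 16 measured genes of the list did not pass against PBS in bleomycin and celastrol libraries. The list's median log2 difference was 0.72 in bleomycin and 0.48 in celastrol libraries.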

How the data were processed

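The authors deposited 1 table of values normalized by DESeq2 size factors (poscounts), a linear signal for each gene in each library. Some values in the deposited table are not whole multiples of the value of 1 read, so counts were not recovered and no count model was used. The authors used Partek 10.0.22 and STAR 2.7.3a on mm10, per the submitters' processing notes; settings, annotation and strand are not given in the sources used here. Groups came from the sample titles. With limma 3.58.1 in R 4.3.3 (lmFit, eBayes with trend), log2(value + 1) of all 8 libraries was fitted without covariates after removing genes that reached 10 in fewer than 2 libraries (23185 of 24612 stayed). Tests were two-sided, with p-values adjusted by Benjamini-Hochberg across the 23185 genes and called under 0.05. Positions are those of the table; exon lengths come from GENCODE M21, which matched 47 of the 50 family rows. Full values were given for Ccl2, Ccl12, Cxcl10 and Cxcl12, members past the threshold, the 6 with the smallest p per comparison, the 5 with the highest mean and their receptors. Members, lists and alternatives were chosen with earlier results of these data known. Counts cover all members and list genes; the values of 1 member and 1 list gene are not reported here. The fit was tested on simulated data with independent noise and changes only in genes with higher values. That test does not cover members with low values or effects of single libraries.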

Additional observations from a re-analysis of the deposited data

How the results depend on the processing

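The number of members called depended on how the spread was estimated. In bleomycin against PBS it was 4, with the share of all genes called in brackets (0.677%). It became 12 with array weights (3.07%), 1 with only the 2 groups compared (0.198%) and 0 without a mean-variance trend (0.0302%), with limma throughout. In celastrol against PBS it was 7 (1.37%), and it became 2 (0.686%) and 0 (0.0819%) under the last 2 of these. With the replicate number as a block, 1 member was called in each of these comparisons, Ccr1, where 0.0733% and 0.177% of all genes were. The groups share only 2 numbers, and the labels do not say that a number pairs them. Same-numbered libraries correlated at between -0.00 and 0.20 in their deviations, and differently numbered ones at between -0.20 and 0.12. With 2 PBS libraries the deviations of 1 mirror those of the other, so the values with PBS are tied by construction. These correlations do not settle whether the numbers pair the libraries. With 1 library left out the count was 0 to 5 in bleomycin against PBS and 0 to 6 in celastrol against PBS. It was 0 in bleomycin without Bleomycin 3 (0.144%) and without Bleomycin 4 (0.0699%), and 2 without Bleomycin 2 (0.999%) and without Celastrol 5 (0.449%). For celastrol against PBS, leaving out Celastrol 5 gave 0 (0.17%) and Bleomycin 4 gave 3 (0.69%). Fits without PBS 2 or PBS 3 leave 1 PBS library, and their counts are not listed. Leaving out Bleomycin 3, Celastrol 2 and Celastrol 3, a choice made after seeing the data, left 1 celastrol library, so no calls are drawn from that fit. The median log2 difference of the members from PBS was then 0.37 in bleomycin and 0.44 in celastrol. The cause of the changes in the number of members called was not tested. In celastrol against bleomycin it was 0 under all 20 alternatives. Rescaling to the same sum or upper quartile moved the median of all genes in celastrol against PBS from -0.07 to -0.17 and -0.19, and the call of Ccl7 there was lost under the latter. Pseudocounts, filters and quantile normalization kept both counts within 1.5 times of the main ones. Members near 0 rest on few reads, and the part of depth in their values was not tested.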

Other observations

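Ccl21b and Ccl21d, near-identical copies of Ccl21a, stood in the same ratio, 0.945, in all 8 libraries, so that their values hold 1 measurement of reads shared between copies. Ccl21b was 0.0579 to 0.0930 of Ccl21a in the PBS and bleomycin libraries and 0.369, 0.127 and 0.0626 of it in Celastrol 2, 3 and 5. Ccl17, which was not tested, was at 4.17 and 9.93 in PBS, 0, 39.2 and 5.14 in bleomycin and 0, 0 and 9.25 in celastrol libraries.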
